A study of Mus musculus with 12 samples.

Results

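The nuclear genes of mitochondrial respiration were taken as the protein-coding genes whose symbol in the adult table begins with Nduf, Uqcr, Cox4, Cox5, Cox6, Cox7, Cox8 or Atp5, or is Sdha, Sdhb, Sdhc or Sdhd. The rule found 92 genes among the 23954 genes of the adult table, and all 92 were matched by Entrez Gene identifier to the 23333 genes of the neonate table. They comprised 36 subunit genes of complex I, 7 assembly factors of complex I (the Ndufaf genes), 4 genes of complex II, 8 of complex III, 20 of complex IV and 17 of complex V. Ndufa4 and Ndufa4l2, named after complex I, were counted with complex IV, to which the Ndufa4 protein belongs. No measured value entered the rule, although the members were chosen with earlier results of these data known.

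RNA-seq was performed on whole, pulverised small intestine of C57BL/6 mice in 4 groups: NCoR1 intestinal knockout (KO) neonates, wild-type (WT) neonates, KO adults and WT adults. Neonates were at postnatal day 12 and adults were 10 weeks old. Each group had 3 libraries, and each library was made from the RNA of 2 mice. Ncor1 encodes the nuclear receptor corepressor NCoR1, a scaffold that brings histone deacetylase to nuclear receptors and other transcription factors. Strain names F/FUN and DIECUN appear in the design text, but the sources used here give neither their alleles, nor the group each belongs to, nor the driver of the intestinal deletion. The labels do not say which mice entered which pool, so p-values measure the spread between these pools.

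Respiration takes electrons from NADH at complex I and from succinate at complex II, passes them through ubiquinone to complex III and through cytochrome c to complex IV, where oxygen is reduced. Complexes I, III and IV pump protons across the inner mitochondrial membrane, and complex V, the ATP synthase, uses the gradient to make ATP. Nuclear genes encode most of the subunits. The remaining subunits come from the mitochondrial genome and were not analysed here. In the small intestine, absorptive enterocytes use ATP for ion pumping, nutrient transport and lipid packaging.

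Reads in genes numbered 5930748 to 8314138 per library in KO neonates, 8443540 to 9340917 in WT neonates, 11912305 to 13057329 in KO adults and 9775420 to 11769729 in WT adults. Ncor1, the targeted gene, had 250, 221 and 247 CPM (reads per 1e+06 reads in genes) in KO neonates, against 429, 435 and 446 CPM in WT neonates. It had 163, 176 and 174 CPM in KO adults, against 232, 236 and 238 CPM in WT adults, so the groups did not overlap at either age. Levels are CPM scaled by the trimmed mean of M values (TMM), and log2 differences are KO minus WT on log2(CPM + 1), which understates the change of low genes. A gene was called when its limma p-value, adjusted over all genes tested by Benjamini-Hochberg, was under 0.05. Scaling by the library sum alone moved the median log2 difference of all genes to -0.11 at both ages, against -0.02 in neonates and -0.00 in adults with TMM. WT libraries differed among themselves in the respiration genes. In adults, 78 of 85 tested members lay above the WT mean in WT replicate 3, with a median log2 deviation of 0.13, and 9 of 85 in WT replicate 1, with a median of -0.10. In neonates 75 of 87 lay above it in WT replicate 3, with a median of 0.06. Without that library 40 members rose and 0 fell, while 1027 of all 14089 genes tested rose and 802 fell.

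With TMM scaling, respiration genes were higher in KO neonates than in WT neonates in each of complexes I to V. Of the 87 members tested in neonates, 42 rose and 0 fell, while 8.99% of all 14215 genes tested rose and 7.72% fell. With edgeR on recovered reads the counts were also 42 and 0, against 9.17% and 7.78% of all genes, and with DESeq2 they were 36 and 0, against 7% and 4.08%. The median log2 difference of the members was 0.21 and that of all genes was -0.02, and 79 of the 87 members had a positive difference. Summed over the 92 genes, the level was 12601, 12186 and 12637 CPM in KO neonates, against 10338, 10309 and 11083 CPM in WT neonates, a ratio of means of 1.18. Every KO library lay above every WT library in this sum. All 3 KO libraries lay above all 3 WT libraries for 51 of the tested members, against 16.2% of all genes tested, and all 3 lay below for 1 member, against 16.5%. Scaled by the library sum alone, 20 members rose and 2 fell, against 5.21% and 15.9% of all genes, with a median log2 difference of 0.11, and the 20 were also called with TMM. In whole tissue, a change in the number of cells of a type and a change in RNA per cell cannot be told apart.

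By complex, 3 of 4 members of complex II rose in KO neonates, 6 of 8 of complex III, 10 of 16 tested of complex V, 8 of 16 tested of complex IV and 15 of 36 of complex I. The complex V count included Atp5sl, which was placed there by its symbol. Whether the complexes differed from each other was not tested. Of the 7 complex I assembly factors, limma, edgeR and DESeq2 each called 0, and 0 had an unadjusted limma p under 0.05. Their summed level was 90.8 ± 4.20 CPM in KO neonates and 89.7 ± 3.41 CPM in WT neonates (SD, n = 3 each). Within complex I, 5 of 7 core subunits and 10 of 29 accessory subunits rose.

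**Figure D1:**
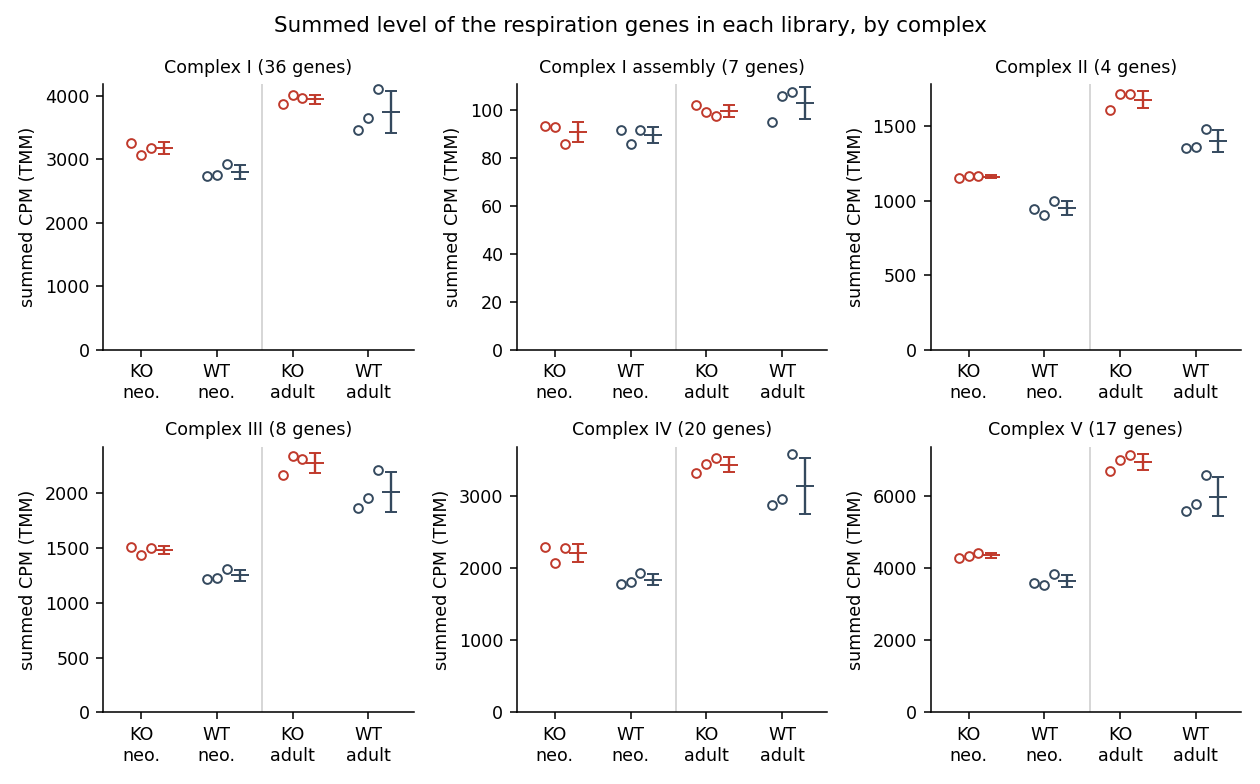
Summed TMM-scaled CPM of the members of each complex (y axis) in KO and WT neonates and KO and WT adults (x axis); each circle is 1 library and the whiskers give the mean ± SD of 3 libraries. In neonates the 3 KO libraries lie above the 3 WT libraries for complexes I, II, III, IV and V but not for the assembly factors; in adults the highest WT library lies inside or above the KO range for complexes I, III and IV.

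Complex I oxidises NADH. Ndufa5, an accessory subunit of its matrix arm (mm9 chr6:24468666-24477687, minus strand), had 75.5, 70.9 and 79.8 CPM in KO neonates, against 49.8, 57.1 and 62.0 CPM in WT neonates. The groups did not overlap, and the log2 difference was 0.42 ± 0.08 (SE; limma adjusted p = 0.0006). Ndufb6, an accessory subunit of the membrane arm, had 51.0, 47.0 and 51.6 CPM in KO neonates, against 39.5, 34.8 and 41.0 CPM in WT neonates. Its log2 difference was 0.37 ± 0.08 (limma adjusted p = 0.0023), again without overlap. The accessory subunits Ndufa8 and Ndufa10 rose by log2 differences of 0.27 ± 0.06 (limma adjusted p = 0.0063) and 0.29 ± 0.07 (limma adjusted p = 0.0070). Among the core subunits, which carry the flavin and iron-sulfur clusters or form the ubiquinone pocket, Ndufv1, Ndufv2, Ndufs7 and Ndufs8 rose by 0.20 to 0.25 on the log2 scale. Ndufs1 and Ndufs3 had log2 differences of 0.13 and -0.08 and were not called. Of the complex I calls, 3 of 15 were made whichever library was left out, and 2 of 15, Ndufa5 and Ndufb6, with library-sum scaling. With that scaling 2 of 36 complex I genes rose, a share near the 5.21% of all genes. Their median log2 difference was then 0.09, against -0.11 for all genes.

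Complex II is succinate dehydrogenase, which also belongs to the tricarboxylic acid cycle. Sdha, its flavoprotein subunit (mm9 chr13:74459703-74487688, minus strand), had 449, 473 and 466 CPM in KO neonates, against 376, 341 and 363 CPM in WT neonates. The lowest KO library lay well above the highest WT library, and the log2 difference was 0.36 ± 0.05 (limma adjusted p = 6.7e-05). Sdhc and Sdhd, the membrane anchors, rose by log2 differences of 0.36 ± 0.06 (limma adjusted p = 0.00025) and 0.28 ± 0.06 (limma adjusted p = 0.0023). Sdhb, the iron-sulfur subunit, had 223, 210 and 227 CPM in KO neonates and 198, 190 and 212 CPM in WT neonates, with 1 pair of libraries overlapping, and was not called (log2 difference 0.14, limma adjusted p = 0.12). All 3 calls were made whichever library was left out and also with library-sum scaling.

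Complex III passes electrons from ubiquinol to cytochrome c. Uqcrc2, a core protein, had 319, 314 and 317 CPM in KO neonates, against 248, 249 and 258 CPM in WT neonates (log2 difference 0.33 ± 0.05, limma adjusted p = 0.0001). Uqcrc1, the other core protein, had 207, 216 and 222 CPM in KO neonates, against 162, 165 and 178 CPM in WT neonates (log2 difference 0.35 ± 0.06, limma adjusted p = 0.00014). In both genes the groups were clearly apart. Uqcrfs1, the Rieske iron-sulfur protein, rose by 0.27 ± 0.06 (limma adjusted p = 0.0013), and the small subunit Uqcrb by 0.39 ± 0.09 (limma adjusted p = 0.0031). The small subunits Uqcr10 and Uqcrh also rose, by 0.23 and 0.17, whereas Uqcrq and Uqcr11 had log2 differences of 0.14 and 0.12 and were not called. The other 4 calls were made whichever library was left out and with library-sum scaling, but Uqcrh was called in 1 and Uqcr10 in 3 of the 6 analyses that left out 1 library, and both lost the call with library-sum scaling (limma adjusted p = 0.38 and 0.16).

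Complex IV is cytochrome c oxidase. Cox6a1, the widely expressed isoform of subunit 6a (mm9 chr5:115795663-115798964, minus strand), had the lowest adjusted p of all members, with 247, 215 and 231 CPM in KO neonates, against 161, 161 and 177 CPM in WT neonates. The log2 difference was 0.47 ± 0.06 (limma adjusted p = 1.4e-05), and the groups were far apart. Cox5a and Cox4i1, which encode subunits 5a and 4, both rose by 0.35 ± 0.06 (limma adjusted p = 0.00013 and 0.00026). Cox5b, Cox6b1, Cox7a2 and Ndufa4 rose by 0.20 to 0.31. Cox6c, Cox7b, Cox7c and Cox8a had log2 differences of 0.16 to 0.24 and were not called, and Cox7a2l, which helps to join complexes into supercomplexes, had one of -0.09. Of the 8 complex IV calls, 7 were made whichever library was left out and 6 with library-sum scaling, under which 1 member was called lower. Ndufa4 lost its call in 4 of the 6 analyses that left out 1 library.

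Complex V makes ATP. Atp5b, the catalytic beta subunit (mm9 chr10:127520363-127527444, plus strand), had 1161, 1191 and 1168 CPM in KO neonates, against 948, 918 and 974 CPM in WT neonates. The KO libraries were within a narrow band above all WT libraries, and the log2 difference was 0.31 ± 0.05 (limma adjusted p = 0.00018). Atp5j, subunit F6 of the peripheral stalk, rose by 0.37 ± 0.07 (limma adjusted p = 0.00059), Atp5d, the delta subunit of the central stalk, by 0.32 ± 0.06 (limma adjusted p = 0.0006), and Atp5g3, which encodes subunit c of the membrane ring, by 0.27 ± 0.05 (limma adjusted p = 0.00083). Of the tested genes, 3 of 5 for the F1 head and central stalk and 6 of 9 for the membrane part and peripheral stalk rose. With library-sum scaling 2 of the 5 and 3 of the 9 rose, and complex V as a whole had 5 higher and 1 lower. Of its 10 calls, 9 were made whichever library was left out. The other was Atp5sl, called in 1 of the 6 analyses that left out 1 library and not with library-sum scaling. Atp5s and Atp5sl were assigned to complex V by symbol and were counted in neither part above. Atp5s, the coupling factor B gene, lay in the other direction, with 18.6, 16.8 and 19.3 CPM in KO neonates and 24.8, 18.5 and 24.7 CPM in WT neonates, and was not called (log2 difference -0.29, limma adjusted p = 0.089).

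**Figure D2:**
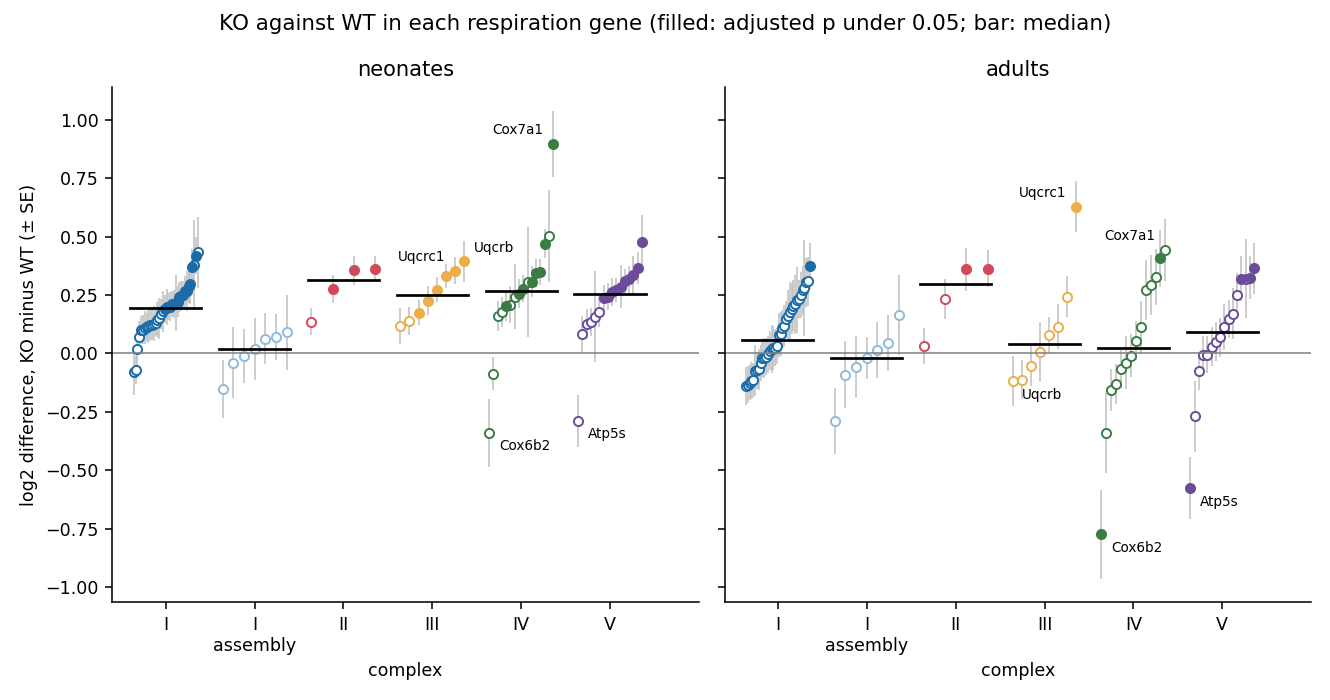
Log2 difference of KO minus WT (y axis) for each tested member, sorted within its complex (x axis), in neonates and in adults; whiskers are SE, filled circles have a limma adjusted p under 0.05 and black bars are medians. In neonates the medians of complexes I to V lie between 0.19 and 0.32; in adults those of complexes I, III and IV lie between 0.02 and 0.06.

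In KO adults fewer members were called than in KO neonates. Of 85 members tested, 8 rose and 2 fell, while 9.94% of all 13417 genes tested rose and 6.37% fell, so the share that rose was near that of all genes. The median log2 difference was 0.05 for the members and -0.00 for all genes, and 53 of the 85 members had a positive difference. The 8 were Ndufv1 of complex I, Sdha and Sdhc of complex II, Uqcrc1 of complex III, Cox5a of complex IV, and Atp5a1, Atp5b and Atp5d of complex V. Summed over the 92 genes, the level was 17780, 18606 and 18759 CPM in KO adults, against 15239, 15816 and 18088 CPM in WT adults, a ratio of means of 1.12, and WT adults replicate 3 lay inside the KO range. With edgeR 7 rose and 2 fell, against 9.95% and 6.42% of all genes, and with DESeq2 9 rose and 2 fell, against 8.35% and 5.25%. All 3 KO libraries lay above all 3 WT libraries for 13 members, against 19.4% of all genes, and below them for 4, against 15.8%. With library-sum scaling, 2 members rose and 7 fell, against 5.5% and 13.9% of all genes, and the median log2 difference turned to -0.07. Of the 7 that fell with that scaling, 4 were accessory subunits of complex I. Without WT adults replicate 3, 23 members rose and 3 fell, while 1283 of all 13310 genes tested rose and 801 fell. Leaving out any other adult library left 1 to 6 members that rose, while 664 to 1380 of all genes rose. The median of the members was -0.01 without WT adults replicate 1.

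Uqcrc1 (mm9 chr9:108838661-108851686, plus strand) was the 1 member called in adults whichever library was left out. It had 505, 602 and 626 CPM in KO adults, against 351, 344 and 427 CPM in WT adults. The groups did not overlap, and the log2 difference was 0.63 ± 0.11 (limma adjusted p = 0.0026). Sdha had 651, 675 and 700 CPM in KO adults, against 526, 501 and 547 CPM in WT adults, and Sdhc had 253, 290 and 296 CPM against 206, 206 and 240 CPM. Both log2 differences were 0.36, as in neonates, with limma adjusted p = 0.011 for Sdha and 0.020 for Sdhc. Uqcrc1 and Sdha were also called with library-sum scaling. Sdhc lost its call with that scaling and in 4 of the 6 analyses that left out 1 library. Sdha lost its call without KO adults replicate 3 or WT adults replicate 2, with a limma adjusted p of up to 0.055.

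The F1 genes of the ATP synthase made up 3 of the 8 increases in adults. Atp5a1, the alpha subunit, had 1742, 1832 and 1832 CPM in KO adults, against 1362, 1387 and 1576 CPM in WT adults. Atp5b had 1836, 1923 and 2023 CPM in KO adults, against 1441, 1502 and 1696 CPM in WT adults, and Atp5d had 467, 511 and 534 CPM against 361, 354 and 466 CPM. The 3 log2 differences were 0.32 ± 0.09, 0.32 ± 0.10 and 0.37 ± 0.11 (limma adjusted p = 0.033, 0.040 and 0.041). All 3 lost their calls with library-sum scaling and in 4 or 5 of the 6 analyses that left out 1 library. The other 2 F1 genes, Atp5c1 and Atp5e, had log2 differences of -0.07 and 0.11 and were not called, and 0 of 9 tested genes of the membrane part and peripheral stalk were called by limma.

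Ndufv1, the NADH-binding subunit, had 163, 181 and 165 CPM in KO adults, against 123, 118 and 152 CPM in WT adults (log2 difference 0.37 ± 0.10, limma adjusted p = 0.024). Cox5a had 339, 379 and 393 CPM in KO adults, against 247, 254 and 343 CPM in WT adults (log2 difference 0.41 ± 0.12, limma adjusted p = 0.043). The highest WT library of Cox5a lay above the lowest KO library. Ndufv1 lost its call in 4 and Cox5a in 5 of the 6 analyses that left out 1 library, and both with library-sum scaling.

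The 2 members that fell in KO adults with TMM scaling were lowly expressed. Atp5s had 7.73, 6.01 and 5.98 CPM in KO adults, against 9.44, 10.2 and 11.1 CPM in WT adults (log2 difference -0.58 ± 0.13, limma adjusted p = 0.013). Cox6b2, an isoform of subunit 6b best known from testis, had 1.65, 0.802 and 1.43 CPM in KO adults, against 3.53, 2.57 and 2.59 CPM in WT adults (log2 difference -0.78 ± 0.19, limma adjusted p = 0.017). Both had groups that did not overlap in adults, and both were called with library-sum scaling too. With that scaling they were also the 2 members called lower in KO neonates. With TMM their neonatal log2 differences were -0.29 for Atp5s and -0.34 for Cox6b2, and neither was called. The 6 adult libraries held 586 reads of Atp5s and 146 of Cox6b2. Atp5s lost its call without KO adults replicate 3, and Cox6b2 without KO adults replicate 2 or WT adults replicate 1, with limma adjusted p values of up to 0.067.

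**Figure D3:**
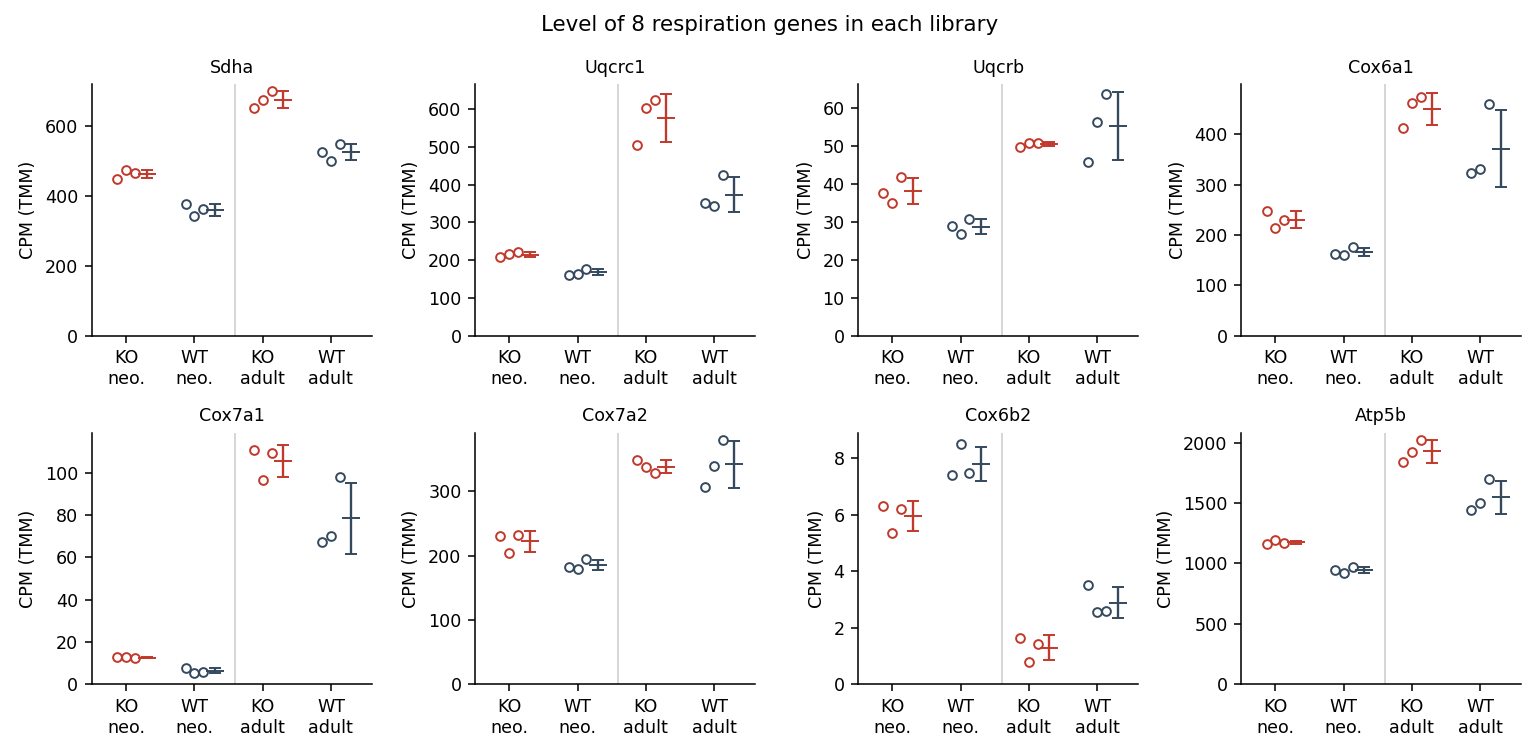
TMM-scaled CPM (y axis, from 0) of 8 members in each library of KO and WT neonates and KO and WT adults (x axis); circles are libraries and whiskers the mean ± SD of 3. Sdha, Uqcrc1 and Atp5b lie above WT in KO at both ages, Uqcrb lies above WT in KO neonates and inside the WT range in KO adults, and Cox6b2 lies below WT in KO at both ages, with a call in adults.

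The KO effect was compared between the ages in 1 fit over all 12 libraries. Ncor1 itself was reduced less in adults than in neonates. With 1 library left out, its log2 difference in adults minus that in neonates was 0.35 to 0.44 (limma adjusted p = 0.0053 to 0.035). The part of this in the result for the respiration genes was not tested. Of 87 members tested, 0 were called with a larger log2 difference in adults and 1 with a smaller one, against 3.2% and 2.19% of all 14575 genes tested. At an unadjusted limma p under 0.05 there were 22 members, edgeR called 0 and 1, against 2.77% and 2% of all genes, and DESeq2 called 0 and 3, against 2.71% and 2.5%. The 1 member was Uqcrb, with 49.8, 50.8 and 50.6 CPM in KO adults, 45.8, 56.3 and 63.7 CPM in WT adults, 37.6, 35.0 and 41.7 CPM in KO neonates and 28.8, 26.7 and 30.7 CPM in WT neonates. KO adults lay inside the WT adult range, and KO neonates lay above all WT neonates. Its log2 difference in adults minus that in neonates was -0.51 ± 0.14 (limma adjusted p = 0.038). The median of this difference over the members was -0.11, against 0.02 for all genes, and 70 of the 87 members were below 0, against 47% of all genes. All 8 members that rose in KO adults also rose in KO neonates, and 34 were called in neonates alone, of which only Uqcrb passed the test of the difference. The difference of Uqcrb was not called with no filter on low values, nor in 10 of the 12 analyses that left out 1 library, with a limma adjusted p of up to 0.11.

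**Figure D4:**
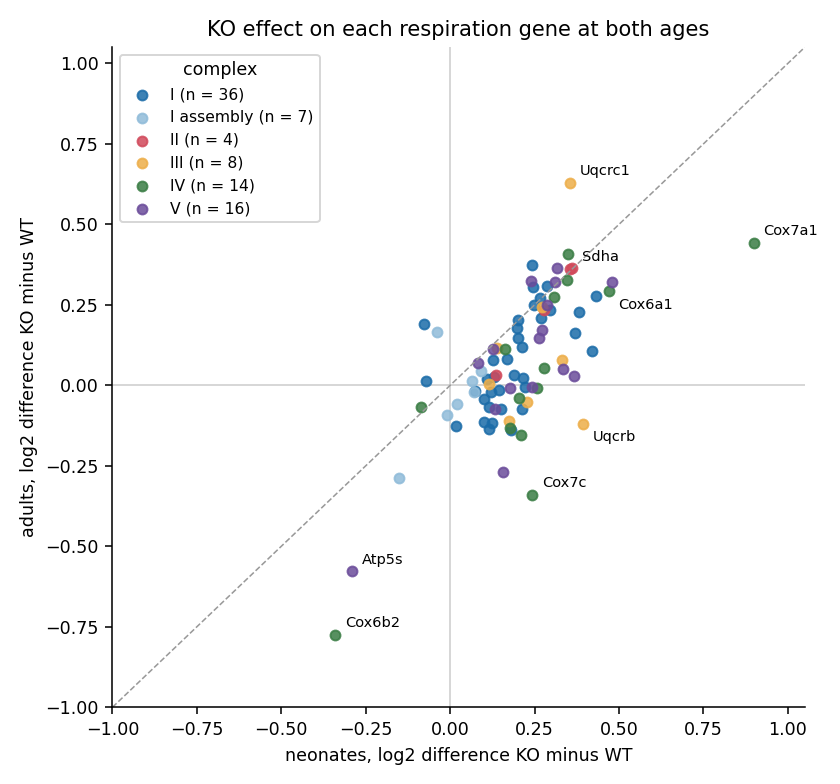
Log2 difference of KO minus WT in neonates (x axis) and in adults (y axis) for the 85 members tested at both ages, coloured by complex; the dashed line marks equal differences. Of the 85 points 68 lie below the line, and Uqcrc1, with 0.63 in adults and 0.35 in neonates, lies farthest above it among the members that rose at both ages.

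Several subunits of complex IV have isoforms with restricted expression. Cox7a1, the heart and skeletal muscle isoform of subunit 7a (mm9 chr7:30969190-30971049, plus strand), had the largest log2 difference of all members in neonates. It had 12.8, 12.8 and 12.2 CPM in KO neonates, against 7.76, 5.37 and 5.97 CPM in WT neonates (log2 difference 0.90 ± 0.14, limma adjusted p = 0.00011). The ratio of means was 1.98, the groups did not overlap, and the call was made whichever library was left out. In adults it had 111, 96.6 and 109 CPM in KO, against 67.3, 69.9 and 97.8 CPM in WT (log2 difference 0.44 ± 0.13, limma adjusted p = 0.051), so it missed the threshold. Cox7a2, its widely expressed counterpart, rose in KO neonates by 0.26 ± 0.06 (limma adjusted p = 0.0056) and had a log2 difference of -0.01 in adults. Per length, Cox7a1 made up 10.6 ± 0.89% of the sum of Cox7a1 and Cox7a2 in KO neonates and 6.65 ± 1.26% in WT neonates, 39.3 ± 1.87% in KO adults and 32.1 ± 2.48% in WT adults (SD, n = 3 each).

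Markers of striated muscle and heart were low in all groups. Their summed level over 8 genes was 19.0 to 24.7 CPM in KO neonates and 19.9 to 28.8 CPM in WT neonates, and averaged 15.4 ± 1.28 CPM in KO adults and 17.6 ± 2.25 CPM in WT adults (SD, n = 3 each). In neonates Myh6, the cardiac myosin heavy chain, was at 0 in all 6 libraries, and 0 of the 5 markers tested were called. In adults 0 of 4 rose and Acta1, skeletal actin, fell. Cox6a2 and Cox8b, the other muscle isoforms, stayed under 1 CPM in every library.

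The remaining restricted isoforms were rare. Cox7b2 was at 0 in all 12 libraries and Cox8c in all but 1, and these genes, with Cox6a2, Cox8b and Atp5g2, were not tested. Cox4i2, the lung-type isoform of subunit 4, had 2.97, 1.37 and 2.30 CPM in KO neonates and 1.13, 1.32 and 2.34 CPM in WT neonates, with overlap, and was under 0.5 CPM in all adult libraries. Ndufa4l2, a paralogue of Ndufa4, had 3.23, 3.86 and 5.14 CPM in KO neonates and 3.26, 2.23 and 2.23 CPM in WT neonates (log2 difference 0.50, limma adjusted p = 0.090) and was under 1 CPM in adults. Of the 3 genes for subunit c of the ATP synthase, Atp5g1 rose in KO neonates by 0.48 ± 0.12 (limma adjusted p = 0.0063) and Atp5g3 as given above. In adults both had log2 differences above 0, at 0.32 and 0.17, and neither was called.

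Levels between genes were compared per kilobase of exon. Atp5g3 was the highest member of complex V in all 4 groups, at 643 CPM per kb in KO neonates, 533 in WT neonates, 1101 in KO adults and 982 in WT adults. Cox4i1 led complex IV, at 575 CPM per kb in KO neonates, 452 in WT neonates, 888 in KO adults and 714 in WT adults. In complex III Uqcrq led in neonates, at 559 CPM per kb in KO and 508 in WT, and Uqcrh in adults, at 599 in KO and 649 in WT. In complex I Ndufa3 led in neonates, at 337 CPM per kb in KO and 307 in WT, and Ndufb9 in adults, at 397 in KO and 367 in WT. Sdhd was the highest gene of complex II at 233 CPM per kb in KO neonates, 193 in WT neonates and 313 in KO adults, and Sdhb in WT adults, at 297. The assembly factors were far lower, with group medians of 6.54 to 8.88 CPM per kb. The lowest were Ndufab1 in complex I, at 5.58 to 9.54 CPM per kb, Ndufaf5 among the assembly factors, Uqcrb in complex III and Atp5g2 in complex V.

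Some of these low levels belong to genes with copies elsewhere. Reads were 36 bases long, and how the aligner treated reads with more than 1 match is not stated in the labels or headers. For 91 members with a transcript in the annotation of the files' build, the share of 36-base windows that also occur outside the gene had a median of 1.79%. No window was copied in 38 members, and 20% or more were copied in 23. The share was 50% or more in 13 members, so their levels are uncertain. Among them it was 81.2% for Ndufab1, 83.5% for Ndufs5, 89.7% for Atp5l, 71.8% for Uqcrb, 74.5% for Atp5g1 and 100% for Atp5g2. For Atp5h it was 76.9%, for Cox5b 68.9% and for Cox7a2l 62.3%. Over 83 members the rank correlation of this share with the WT level per kb was -0.09 in neonates and -0.05 in adults. Among members with under 20% of windows copied, 34 of 64 rose in KO neonates, and among those with 20% or more, 8 of 22 rose, with median log2 differences of 0.21 in both. In KO adults 8 of 62 rose and 2 fell among the former, and 0 of 22 rose or fell among the latter. The share for Cox7a1 and for Cox6b2 was 0%, that for Uqcrc1 was 0.741% and that for Cox6a1 was 20.3%.

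Adults were set beside neonates as a description, because the ages were tabled and scaled separately. In KO the summed level of the 92 genes was 18382 ± 526 CPM in adults and 12475 ± 250 CPM in neonates (SD, n = 3 each), a ratio of 1.47. In WT it was 16381 ± 1506 CPM in adults and 10577 ± 439 CPM in neonates, a ratio of 1.55. With 1 set of TMM factors over all 12 libraries these ratios were 1.89 in KO and 2.01 in WT. In WT, 75 of 87 members with at least 1 CPM in neonates had a higher mean in adults, and the 3 adult libraries lay above the 3 neonate libraries for 65 and below them for 7. Cox7a1 had the highest ratio, 12.3 in WT and 8.37 in KO. Ndufa4l2, Cox4i2, Cox6b2 and Atp5s had the lowest, with adult levels at 0.210, 0.225, 0.371 and 0.453 of those in neonates in WT. By complex, the WT ratio was 1.34 for complex I, 1.48 for complex II, 1.61 for complex III, 1.71 for complex IV and 1.64 for complex V. Among all genes with at least 1 CPM at both ages, the median log2 ratio was -0.27 with TMM within each table and 0.09 with TMM over 12 libraries.

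Promoters of members that rose are shown because factors known for respiration genes, such as NRF1, GABP, the estrogen-related receptors (ERR) and YY1, bind near their starts. RefSeq promoters of build GRCm38.p6, from 250 bases before to 50 after the start, were found for 76 of the 92 members, some with several starts. Motifs were searched on both strands: GCGCATGCG for NRF1, CCGGAAG for ETS factors including GABP, TCAAGGTCA for ERR, AAGATGGCG for YY1 and GGGGCGGGG for SP1. Matches are in capitals below, as the motif or its reverse complement, and the NRF1 motif on the plus strand can overlap its own match on the minus strand. Cox6a1 had the lowest adjusted p in neonates, Uqcrc1 the most stable call in adults, Sdhd and Atp5g3 were the 2 members with an ERR match, Atp5j had both a YY1 and an ETS match, and Cox7a1, with the largest neonatal difference, had no match.
Cox6a1, chr5:115348909-115349208, minus strand: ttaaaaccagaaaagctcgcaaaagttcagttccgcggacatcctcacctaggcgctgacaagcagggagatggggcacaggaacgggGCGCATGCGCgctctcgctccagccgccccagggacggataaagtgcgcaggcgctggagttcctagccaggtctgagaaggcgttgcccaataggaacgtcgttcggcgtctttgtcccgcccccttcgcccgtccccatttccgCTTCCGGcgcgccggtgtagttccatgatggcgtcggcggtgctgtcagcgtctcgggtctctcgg
Uqcrc1, chr9:108936398-108936697, plus strand: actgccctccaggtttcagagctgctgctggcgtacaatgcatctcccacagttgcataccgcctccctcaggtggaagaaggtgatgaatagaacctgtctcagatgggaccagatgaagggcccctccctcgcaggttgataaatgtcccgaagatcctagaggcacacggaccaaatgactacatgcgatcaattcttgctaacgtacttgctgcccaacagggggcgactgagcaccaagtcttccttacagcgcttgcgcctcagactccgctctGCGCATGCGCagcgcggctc
Sdhd, chr9:50603800-50604099, minus strand: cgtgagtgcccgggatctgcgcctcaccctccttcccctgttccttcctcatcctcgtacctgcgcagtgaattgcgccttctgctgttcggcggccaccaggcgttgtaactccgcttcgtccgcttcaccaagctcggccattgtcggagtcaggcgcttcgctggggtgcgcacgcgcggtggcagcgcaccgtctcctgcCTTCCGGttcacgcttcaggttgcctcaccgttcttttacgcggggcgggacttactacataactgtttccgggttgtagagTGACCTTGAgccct
Atp5g3, chr2:73911277-73911576, minus strand: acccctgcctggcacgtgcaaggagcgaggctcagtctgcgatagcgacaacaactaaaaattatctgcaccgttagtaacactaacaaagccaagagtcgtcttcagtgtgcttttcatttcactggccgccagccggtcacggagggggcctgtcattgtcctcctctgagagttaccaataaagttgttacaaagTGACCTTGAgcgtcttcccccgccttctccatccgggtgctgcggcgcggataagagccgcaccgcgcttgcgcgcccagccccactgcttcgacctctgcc
Atp5j, chr16:84834927-84835226, minus strand: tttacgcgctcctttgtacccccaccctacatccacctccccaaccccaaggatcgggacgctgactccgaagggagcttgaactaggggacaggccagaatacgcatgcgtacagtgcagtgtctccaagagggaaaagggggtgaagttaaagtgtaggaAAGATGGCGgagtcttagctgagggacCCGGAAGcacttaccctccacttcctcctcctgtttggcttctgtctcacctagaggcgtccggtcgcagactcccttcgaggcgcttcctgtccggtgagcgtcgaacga
Cox7a1, chr7:30183921-30184220, plus strand: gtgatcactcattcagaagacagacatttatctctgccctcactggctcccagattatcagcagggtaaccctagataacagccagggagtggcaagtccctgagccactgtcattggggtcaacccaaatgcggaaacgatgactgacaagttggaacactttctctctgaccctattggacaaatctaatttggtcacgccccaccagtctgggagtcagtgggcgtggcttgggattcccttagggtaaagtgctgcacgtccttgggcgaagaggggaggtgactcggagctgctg

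The NRF1 motif was found in 13.2% of the 76 members, against 2.61% of 17492 protein-coding genes in the promoter table. The shares were 22.4% against 12.9% for the ETS motif, 10.5% against 2.14% for YY1, 2.63% against 0.377% for ERR and 17.1% against 17.3% for SP1. Among members with a promoter, the NRF1 motif was held by 3 of 35 that rose in KO neonates and by 6 of 38 that were tested and not called. For the ETS motif these counts were 8 of 35 and 9 of 38, for YY1 5 of 35 and 3 of 38, and for ERR 2 of 35 and 0 of 38. A match is a description of these windows and was not tested against the calls.

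Genes that act with the respiratory chain were described from lists outside the prefixes. Cyc1, cytochrome c1 of complex III, rose in KO neonates, with 150, 155 and 141 CPM against 125, 118 and 122 CPM in WT neonates (log2 difference 0.29 ± 0.06, limma adjusted p = 0.0015). It also rose in KO adults, with 339, 385 and 395 CPM against 261, 262 and 328 CPM in WT adults (log2 difference 0.40 ± 0.10, limma adjusted p = 0.022). Cycs, cytochrome c, was called at neither age. Of 36 assembly factors outside the prefixes, 7 rose and 0 fell in KO neonates, and 6 rose and 1 fell in KO adults. For these and the following lists, the shares of all genes are those given above: 8.99% rose and 7.72% fell in neonates, and 9.94% rose and 6.37% fell in adults, or, with library-sum scaling, 5.21% and 15.9% in neonates and 5.5% and 13.9% in adults. With library-sum scaling 2 of the 36 rose and 0 fell in KO neonates, and 2 rose and 2 fell in KO adults. Cox15, needed for the haem of complex IV, rose at both ages by log2 differences of 0.49 and 0.53 (limma adjusted p = 0.00018 and 0.0031). Sco1, which delivers copper to complex IV, rose by 0.44 in KO neonates, and Coa5 rose by 0.28 in KO neonates and 0.40 in KO adults. Cox16 was the member of that list that fell in KO adults, by 0.40.

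The tricarboxylic acid cycle and pyruvate dehydrogenase supply NADH and succinate. Of 17 genes, 11 rose and 0 fell in KO neonates, and 2 rose and 0 fell in KO adults. With library-sum scaling 4 rose in KO neonates and 1 in KO adults. Cs, citrate synthase, had 405, 451 and 415 CPM in KO neonates, against 330, 323 and 341 CPM in WT neonates (log2 difference 0.35 ± 0.06, limma adjusted p = 0.00011). The groups did not overlap. Mdh2, mitochondrial malate dehydrogenase, rose by 0.36 in KO neonates and by 0.37 in KO adults. Of 7 tested adenine nucleotide and uncoupling carriers, 4 rose in KO neonates and 1 in KO adults, and with library-sum scaling 2 rose in KO neonates and 1 rose and 1 fell in KO adults. Slc25a5, which exchanges ADP and ATP, rose by 0.52 in KO neonates, and Ucp2 rose by 0.33 in KO neonates and 0.49 in KO adults.

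The mitochondrial ribosome, which translates the subunits encoded in mitochondria, had 12 of 75 tested genes higher in KO neonates and 15 of 75 in KO adults, with 0 lower at either age by limma. Log2 differences were positive for 61 of 75 in neonates and 53 of 75 in adults, with medians of 0.14 at both ages. With library-sum scaling 1 of 75 rose and 1 fell in KO neonates, a smaller share than of all genes in both directions, and 6 rose and 3 fell in KO adults. Mrpl45 rose at both ages, by 0.32 in KO neonates and 0.49 in KO adults. In glycolysis, 4 of 16 genes rose and 1 fell in KO neonates, and 3 of 16 rose in KO adults. With library-sum scaling 2 rose and 3 fell in KO neonates, and 2 rose in KO adults. With TMM the summed glycolysis level was 4503, 4317 and 4242 CPM in KO neonates, against 3206, 3058 and 3386 CPM in WT neonates. The ratio of means was 1.35, without overlap, and it was 1.15 in adults. In neonates the log2 differences were positive for 7 genes and negative for 9, with a median of -0.03 and a highest value of 0.59. Ldha, lactate dehydrogenase A, rose by 0.33 in KO neonates and 0.45 in KO adults, Pkm, pyruvate kinase, fell by 0.25 in KO neonates, and Gpi1 rose by 0.73 in KO adults.

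Among 21 regulators of mitochondrial biogenesis, 1 rose and 1 fell in KO neonates and 1 of 20 tested rose in KO adults, with the same counts under library-sum scaling. Ppargc1a, which encodes the coactivator PGC-1alpha, had 56.0, 61.9 and 59.4 CPM in KO neonates, against 38.1, 42.6 and 43.9 CPM in WT neonates (log2 difference 0.50 ± 0.08, limma adjusted p = 6.5e-05). In adults it had 131, 140 and 125 CPM in KO, against 115, 136 and 131 CPM in WT, and the groups overlapped. Ppargc1b, which encodes PGC-1beta, had 34.5, 49.1 and 45.9 CPM in KO adults, against 29.2, 27.2 and 31.2 CPM in WT adults (log2 difference 0.53 ± 0.12, limma adjusted p = 0.013). Polg, the mitochondrial DNA polymerase, fell by 0.21 in KO neonates (limma adjusted p = 0.026). Esrra, Nrf1 and Gabpa, which encode factors that bind the motifs above, had log2 differences of 0.07, 0.05 and 0.16 in neonates and were not called.

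Markers of enterocytes moved with the respiration genes in neonates. Of 11 enterocyte markers, 9 rose and 0 fell in KO neonates, and their summed level was 84047 to 92036 CPM in KO neonates and 72367 to 80035 CPM in WT neonates. Apob and Mttp, which package lipid, and Alpi, an alkaline phosphatase of the brush border, had the lowest adjusted p, with log2 differences of 0.74, 0.59 and 0.43. Sis, sucrase-isomaltase, had the largest log2 difference of the list, 1.62 ± 0.34 (limma adjusted p = 0.049). In adults 2 rose, Apob by 0.47 and Mttp by 0.39, and Lct, lactase, fell by 0.84, with sums of 68514 to 72013 CPM in KO adults and 58277 to 65981 CPM in WT adults. With library-sum scaling 8 rose and 2 fell in KO neonates, and 1 rose and 1 fell in KO adults. All 11 markers were expressed in every library. Their part in the result for the respiration genes was not tested.

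Myeloid markers moved the other way in neonates. Their summed level was 186 to 224 CPM in KO neonates and 267 to 312 CPM in WT neonates, without overlap, a ratio of means of 0.713. All 5 had an unadjusted limma p under 0.05, and Csf1r was called lower, with a log2 difference of -0.57 (limma adjusted p = 0.032). Of the other 4, 3 had negative log2 differences, and Cd68 had one of 0.36. With library-sum scaling 4 of the 5 were lower. In adults the sum averaged 80.1 ± 4.18 CPM in KO and 90.3 ± 12.8 CPM in WT (SD, n = 3 each), and the groups overlapped. Its part in the result for the respiration genes was not tested.

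In neonates the marker lists of other cell types had fewer calls than that of enterocytes. In KO neonates 1 marker rose in each of the Paneth cell (Ang4), goblet cell (Tff3) and endothelium (Kdr) lists. In KO neonates 1 fell in each of the enteroendocrine (Gip) and enteric neuron and glia (S100b) lists, and 2 of 8 stem and cycling cell markers fell (Lgr5 and Olfm4). No marker of fibroblasts, smooth muscle, T cells, B and plasma cells, pancreatic acinar cells or red blood cells was called in neonates by limma, and no adipocyte marker reached the filter. All 6 fibroblast markers had negative log2 differences in neonates, and 3 of the 6 were lower with library-sum scaling. That scaling also gave 2 lower enteroendocrine markers in KO neonates and 0 calls for the goblet cell and endothelium lists, and it left the Paneth cell, stem and cycling cell and enteric neuron and glia counts as they were. In KO adults 4 of 6 Paneth cell markers fell, among them Lyz1 by 0.58, and 3 of 6 fibroblast markers fell, among them Dcn by 0.46. In KO adults 2 of 7 goblet cell markers, 1 of 7 enteroendocrine markers and 1 of 8 stem and cycling cell markers also fell, and 1 rose in each of the endothelium, T cell and B and plasma cell lists. With library-sum scaling 3 goblet cell and 2 stem and cycling cell markers fell in KO adults, 1 fell in each of the endothelium and smooth muscle lists, and the 3 increases were lost. Smooth muscle, myeloid, neuron and glia, adipocyte, acinar and red blood cell markers had 0 calls in adults by limma.

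**Figure D5:**
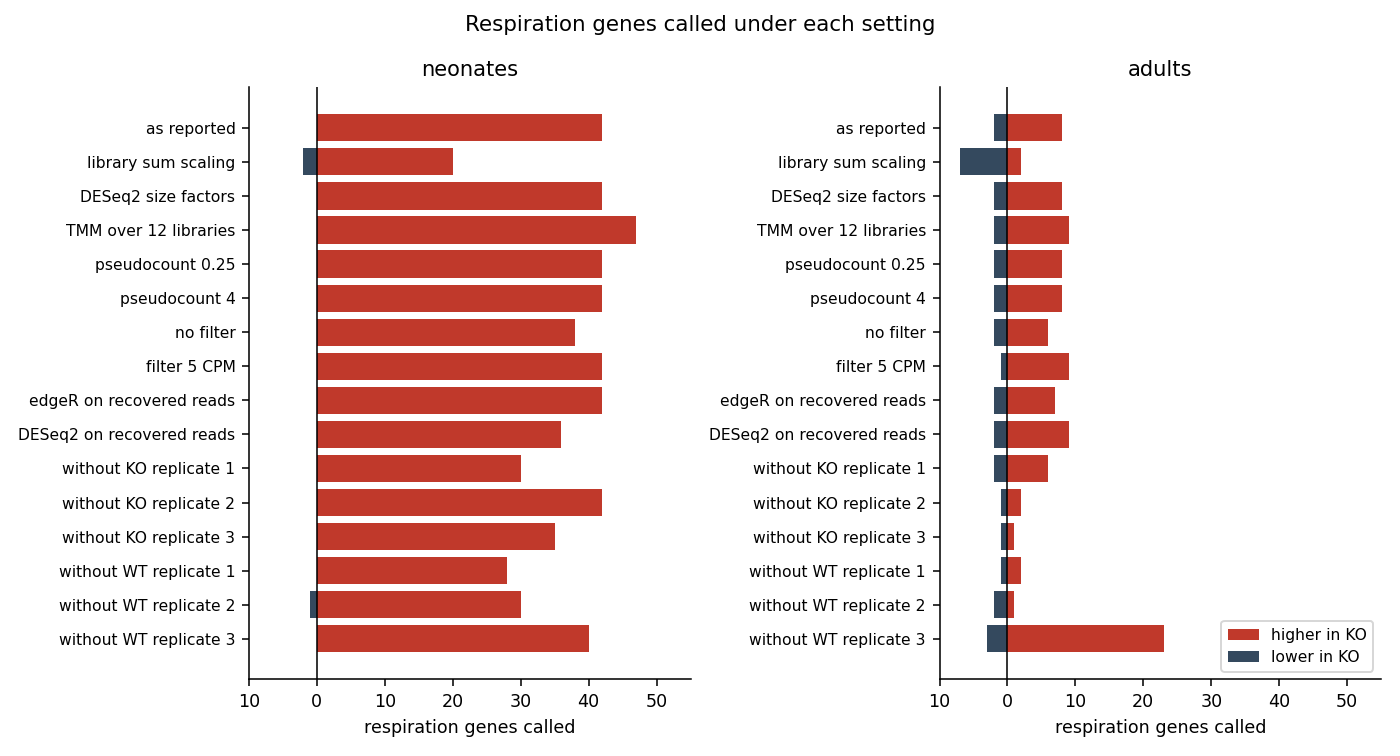
Number of members called higher (to the right of 0) or lower (to the left of 0) in KO (x axis) under each setting (y axis), in neonates and in adults. In neonates 20 to 47 members rose under every setting shown, with the fewest under library-sum scaling; in adults 1 to 9 rose except without WT replicate 3, where 23 rose.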

How the data were processed

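Stranded TruSeq mRNA libraries, 12 in all, were sequenced, per the labels' protocols. Reads were aligned with Bowtie 0.12.2 to mm9, per the submitters' processing notes, and counted in exons on the opposite strand with HOMER, per the file headers. The authors deposited a signal per gene, which by its values is the read count divided by 1 factor per library, and whole reads were recovered for 100% of values within 0.01 deposited units. The log2 fold changes and p-values with FDR that the authors deposited have no named test in the headers and were used only to check signs. The 12 RPKM columns of the same libraries were not used.

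Signals were converted to CPM with TMM factors (edgeR 4.0.16), and log2(CPM + 1) was tested with limma 3.58.1 (trend and robust, R 4.3.3) for genes that reached 1 CPM in 3 or more libraries. Adjustment was by Benjamini-Hochberg over all genes tested at each age. The change of the KO effect with age was tested in 1 fit of 12 libraries. The plan named edgeR for raw counts; since the deposited values were scaled, edgeR and DESeq2 1.42.0 on the recovered reads served as alternatives. Same-numbered KO and WT libraries correlated at 0.0301 to 0.159 in neonates and at -0.213 to 0.0661 in adults. They did not deviate together throughout, so replicate numbers were not used as pairs. Members and gene lists were chosen with earlier results of these data known. The rule for named genes took Ncor1, up to 4 called members of each complex with the lowest adjusted p, the highest and lowest per length, members called in the difference between ages, the isoform families and up to 3 called genes of each list; other genes named were chosen after their values were seen. Windows of 36 bases were taken from protein-coding GENCODE transcripts of the mm9 assembly and searched for in that genome, and promoters came from RefSeq. A few genes of the lists and complexes are not reported here by name.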

Additional observations from a re-analysis of the deposited data

Results flagged for a closer look

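Uqcrb was the member whose KO effect differed between the ages by the test of the difference itself. The log2 difference was -0.12 ± 0.11 in adults and 0.39 ± 0.09 in neonates, and the adult value minus the neonatal value was -0.51 ± 0.14 (limma adjusted p = 0.038). Of its 36-base windows 71.8% also occur elsewhere in the genome, and their part in the result was not tested.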

How the results depend on the processing

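With library-sum scaling, neonates had 20 members higher and 2 lower with a median log2 difference of 0.11, and adults had 2 higher and 7 lower with a median of -0.068. A filter at 5 CPM left 1 lower in adults. For the difference between ages, DESeq2 called 3 lower, and 0 were lower with no filter, which also left 38 higher in neonates and 6 in adults. Leaving out 1 library at a time gave 28 to 42 higher and 0 to 1 lower in neonates (median 0.18 to 0.23), 1 to 23 higher and 1 to 3 lower in adults (median -0.01 to 0.11), and 0 to 2 lower for the difference (median -0.17 to -0.07). Among all genes these repeats gave 950 to 1130 higher and 748 to 939 lower in neonates. They gave 664 to 1380 higher and 386 to 801 lower in adults, and 212 to 387 lower for the difference. The replicate block gave 45 higher and 1 lower in neonates, against 1478 and 1344 of all genes. In adults it gave 8 and 2, against 1117 and 694, and 6 of the 8 were among those called without it. For the difference it gave 0 and 1, against 442 and 314. Same-numbered libraries correlated at 0.159, 0.138 and 0.0301 in neonates and at 0.0661, -0.213 and -0.115 in adults. Each KO neonate library correlated best with its own number, but not every library did. Among the named members, 4 that were not called in adults changed sign. Cox6b1 had -0.068 with library-sum scaling and -0.002042 to 0.11 with 1 library left out, and Cox8a had -0.011 with library-sum scaling. With 1 library left out, Cox7a2 had -0.091 to 0.067 and Ndufa4 had -0.14 to 0.066. The causes were not tested. Over all genes, library-sum scaling gave 741 higher and 2267 lower in neonates, against 1278 and 1098 with TMM, and 741 and 1870 in adults, against 1334 and 854. DESeq2 called 580 genes lower in neonates. Of 603 repeats of 37 called results of Ncor1 and the named members, 540 kept the call, 63 lost it and 0 changed direction. Named members were chosen by the lowest adjusted p in their complex or as isoform families, so these repeats favour strong calls. Among all called members, 26 of 42 in neonates and 1 of 10 in adults were called whichever library was left out. With 3 pools a group, small differences and genes of few reads could not be resolved.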
